A study of Mus musculus with 14 samples.

Results

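The proteasome subunit genes were measured in single mouse oocytes with and without Kdm1a, which encodes the histone demethylase LSD1. Members are the genes of the count table whose symbol begins with Psma, Psmb, Psmc, Psmd, Psme, Psmf or Psmg followed by a digit, without pseudogene symbols. This gave 50 of 24064 genes. Of these, 48 encode subunits, regulators or assembly factors of the proteasome, and 2, Psmc3ip and Psme2b, were given no role here. The zona pellucida was removed, single oocytes were frozen, and poly(A) RNA was amplified by a method that reaches up to 3 kb from the 3′ end and read in single-end reads of 49 bases.

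Control oocytes were of 2 kinds. The 4 wt/wt oocytes (wt1, wt3, wt4 and wt5) came from C57BL/6J mice with an intact Kdm1a gene. The single f/f oocyte (C3) came from the mixed B6;129 strain and carried Kdm1a alleles with loxP sites around the first exon, without cre. The 5 mko/mko oocytes (D1, D2, D3, D4 and D7), called mutant here, came from the mixed B6;129 strain and carried the floxed alleles together with a cre transgene driven by Zp3, which is active in the growing oocyte. The study gives an age for females that gave embryos and none for those that gave the oocytes. Strain and the naming scheme of the libraries coincide with wt/wt against all other oocytes, and in a comparison with wt/wt oocytes they cannot be told apart from genotype. Only 1 control oocyte, C3, shares the strain of the mutants.

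The names C3, D3, D4 and D7 each belong to 2 libraries, which the labels number as separate oocytes. Their counts were summed by name, a reading that the labels do not settle. It gives 5 control and 5 mutant oocytes, the numbers that the study's text states. The animals of origin are not given, so p-values measure the spread between these oocytes. Total counts were 1375187, 1740242, 1892015 and 1637050 in wt1, wt3, wt4 and wt5, and 6928548 in C3. They were 2346547, 2016701, 3245395, 6926076 and 2135951 in D1, D2, D3, D4 and D7. Levels are given as CPM, counts scaled by library size, with sizes adjusted by TMM normalization. The floor of detection was taken as 3 counts, which is 0.456 to 1.83 CPM depending on the oocyte. Floors and intervals cover counting error only.

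The proteasome degrades proteins tagged with ubiquitin. Its 20S core is a barrel of outer alpha rings, which gate the entry, and inner beta rings, which hold the protease sites. The 19S particle caps the barrel, binds and removes ubiquitin, and unfolds the substrate with a ring of ATPases. The mature oocyte is nearly silent in transcription and lives on stored mRNA, and proteasome activity is needed for it to complete meiosis.

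Kdm1a (chromosome 4, 136550540 to 136602723, minus strand, GRCm38) was counted first. It had 70, 43, 85 and 27 counts in wt1, wt3, wt4 and wt5, 669 counts in C3, and 0, 2, 4, 3 and 10 counts in D1, D2, D3, D4 and D7. In CPM all mutant oocytes were below all control oocytes. The log2 fold change of mutant over control oocytes was -5.02 ± 0.86 (SE; adjusted p = 0.00110 in edgeR), with 5 oocytes in each group. It was -4.05 without C3 and -5.97 without D7. The counts cover the whole gene and not only the floxed exon.

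The oocyte label was checked against markers. All 10 oocyte markers were detected in each oocyte, and Gdf9, an oocyte growth factor, had the highest mean CPM. In single oocytes this order varied, with Oosp1 above Gdf9 in wt1 and wt4 and H1foo above it in wt1. The summed level of the 10 markers was 32628 ± 9237 CPM (SD, n = 4) in wt/wt, 86162 CPM in f/f and 103480 ± 30557 CPM (SD, n = 5) in mutant oocytes. By the thresholds given below, 6 of the 10 were called higher in mutant oocytes, beside 14.7% of all genes tested, and 0 lower. Zp2, Zp3 and Ooep had log2 fold changes of 4.75, 3.27 and 4.55, with C3 within the wt/wt range, while Oosp1 had -0.29. Of 10 cumulus and granulosa cell markers, 7 were at 0 in every oocyte, among them Fshr, Amh and Foxl2, and Cyp19a1, aromatase, had the highest mean CPM. The list summed to 66.9, 36.3, 53.6 and 18.8 CPM in wt1, wt3, wt4 and wt5, 64.4 CPM in C3, and 88.3, 81.6, 149, 114 and 110.2 CPM in D1, D2, D3, D4 and D7. Cyp19a1 made up most of these sums in each oocyte but wt5, where Nr5a2 was higher. It had 8.52 to 62.8 CPM in control and 79.2 to 147 CPM in mutant oocytes. The other markers detected did not share its direction. Nr5a2 had 8.59 to 11.6 CPM in wt/wt, 1.55 CPM in C3 and 0.913 to 6.48 CPM in mutant oocytes. Has2 had 0.897 to 6.04 CPM in wt/wt oocytes, 0 CPM in C3 and 0 CPM in 4 of 5 mutant oocytes. Of 8 immune cell markers, 5 were at 0 in every oocyte, among them the pan-leukocyte gene Ptprc, and the most abundant was H2-Aa. This list summed to 0, 0, 0 and 0.449 CPM in wt1, wt3, wt4 and wt5, 2.22 CPM in C3, and 7.13, 9.14, 7.48, 11.7 and 9.97 CPM in D1, D2, D3, D4 and D7. Both sums were higher in each mutant oocyte than in each control oocyte, the first of them through Cyp19a1 alone, and their part in the results on proteasome genes was not tested.

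Proteasome mRNAs did not move as a block between control and mutant oocytes. Psma5, Psma7, Psmb2 and Psmf1 were higher in mutant oocytes, Psma6, Psmc4 and Psme4 were lower, and these directions held under each scaling tried. Of the 50 members, 42 were among the top 60% of genes by total count and were tested. Of these, 7 were called, which took an adjusted p under 0.05 and a log2 fold change of 1 or more in either direction, beside 25.9% of the 9198 genes tested. The share of members called was 16.7%. Those called higher were 4, beside 14.7% of all genes tested, and those called lower were 3, beside 11.2%. The count of 7 became 4 without D1, beside 17.6% of all genes tested, and 11 without C3, beside 31.5%. With DESeq2 11 members were called, beside 30.5%.

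The median log2 fold change was 0.42 over the members tested and 0.17 over all genes tested, but with counts scaled by library totals these medians were -0.050 and -0.23, so the sign for the members depends on the scaling. Relative to all genes, the members' median was 0.25 higher with TMM, 0.18 higher with library totals and 0.57 higher with the filter filterByExpr, but without C3 the difference was -0.027. After removal of trends with GC content and length the members' median was -0.33, beside -0.052 for all genes. Without D4 the medians of members and of all genes were 0.023 and 0.021.

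**Figure D1:**
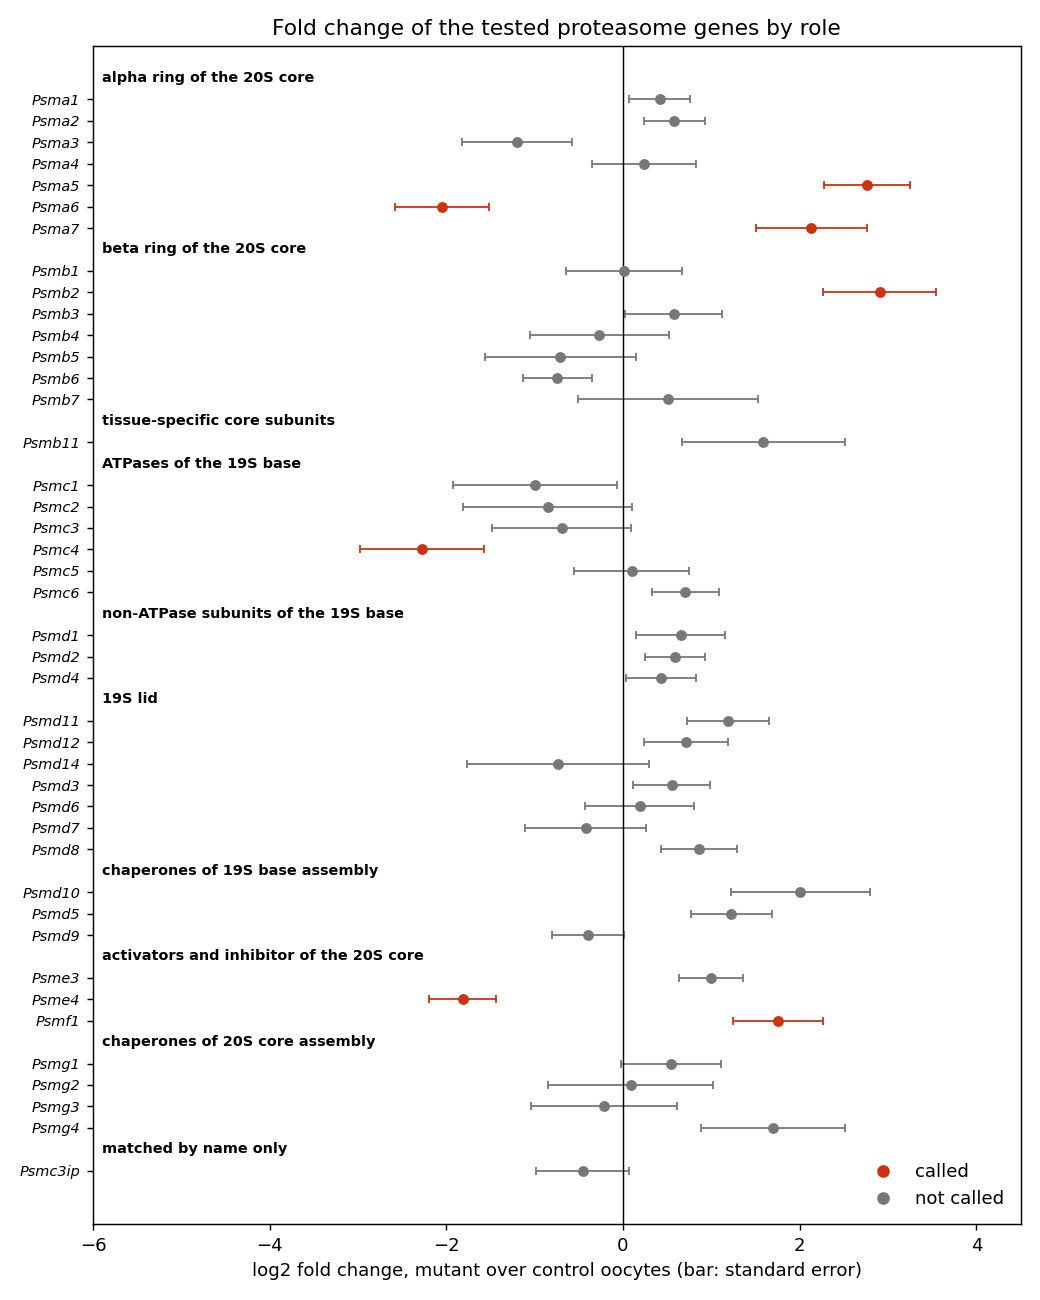
Log2 fold change of mutant over control oocytes (x axis) for the 42 tested members grouped by role (y axis), with bars for the standard error and called genes in red. Called genes lie on both sides of 0, and the alpha ring holds genes of both directions.

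In 5 of the 42 members the mutant and control oocytes did not overlap, beside 16.2% of all genes tested. Mutant oocytes were the higher group in 3 of them, Psma5, Psmb2 and Psmf1, beside 8.09% of all genes. They were the lower group in 2, Psma6 and Psme4, also beside 8.09%. On library totals the number was again 5, with Psmb6 in place of Psmf1, beside 14% of all genes. Mutant oocytes were then the higher group in 2, beside 5.6%, and the lower group in 3, beside 8.44%.

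The alpha ring held called genes of both directions. Of its 7 genes 2 were called higher, beside 14.7% of all genes tested, and 1 lower, beside 11.2%. Psma5, a structural subunit (chromosome 3, 108256926 to 108279974, plus strand), had 20.5, 12.1, 9.81 and 8.52 CPM in wt1, wt3, wt4 and wt5, 46.8 CPM in C3, and 114, 109, 198, 164 and 85.3 CPM in D1, D2, D3, D4 and D7. Each mutant oocyte was above each control oocyte, and C3 lay between the wt/wt and mutant oocytes. The log2 fold change was 2.76 ± 0.49 (SE; adjusted p = 0.00131 in edgeR). Against wt/wt oocytes alone it was 3.41, and against C3 alone it was 1.54. Of the 49-base windows of its transcript, 56.0% also occur in other genes, mostly the processed pseudogenes Gm8394 and Gm12989. Only unique alignments were counted, so its level is uncertain.

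Psma6, another subunit of the ring (chromosome 12, 55384222 to 55418454, plus strand), had 27.1, 16.0, 8.18 and 23.8 CPM in wt1, wt3, wt4 and wt5, 9.32 CPM in C3, and 1.65, 3.66, 3.56, 5.48 and 5.49 CPM in D1, D2, D3, D4 and D7. All mutant oocytes were below all control oocytes, and C3 lay within the wt/wt oocytes. Its log2 fold change was -2.05 ± 0.53 (SE; adjusted p = 0.0112 in edgeR). No window of its transcript occurs in another gene.

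Psma7, the subunit whose place Psma8 takes in the testis (chromosome 2, 180036374 to 180042433, minus strand), was chosen after its values were seen. It had 11.1, 4.32, 1.64 and 4.04 CPM in wt1, wt3, wt4 and wt5, 9.10 CPM in C3, and 59.2, 14.6, 11.4, 38.9 and 8.48 CPM in D1, D2, D3, D4 and D7. D1 and D4 were the highest, and D7 lay below wt1 and C3, so the groups overlapped. This gave a log2 fold change of 2.13 ± 0.63 (SE; adjusted p = 0.0211 in edgeR). The call was lost without wt3, at 2.06, without D1, at 1.61, and with GC and length trends removed, at 1.19.

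Psma2, a further alpha subunit, was chosen after its values were seen because its level was the highest of the members. It had 1172, 682, 847 and 1510 CPM in wt1, wt3, wt4 and wt5, 981 CPM in C3, and 1064, 2018, 1945, 1281 and 1468 CPM in D1, D2, D3, D4 and D7. The groups overlapped, and the log2 fold change was 0.58 ± 0.34 (SE; adjusted p = 0.21 in edgeR). Psma2 made up 71.6% to 90.1% of the alpha ring counts of an oocyte. The gene AW209491 lies over 8943 bases of Psma2 on the same strand, which leaves this level uncertain. The other alpha subunits, Psma1, Psma3 and Psma4, ranged over 0.609 to 259 CPM with log2 fold changes from -1.20 for Psma3 to 0.41 for Psma1, and none was called. Without D4 Psma3 was called, at -1.95.

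In the beta ring 1 of 7 genes was called, beside 25.9% of all genes tested. Psmb2, a structural subunit (chromosome 4, 126677630 to 126709714, plus strand), had 34.8, 10.4, 22.9 and 12.1 CPM in wt1, wt3, wt4 and wt5, 157 CPM in C3, and 366, 319, 329.7, 543 and 233 CPM in D1, D2, D3, D4 and D7. All mutant oocytes were above all control oocytes, and C3 lay between the wt/wt and mutant oocytes. On the log2 scale the fold change was 2.91 ± 0.64 (SE; adjusted p = 0.00492 in edgeR), and no window of its transcript is shared. Against wt/wt oocytes alone, which is the same as leaving out C3, it was 4.18. Against C3 alone it was 1.21 and was not called. In that comparison 3 of 8811 genes tested were called in all (0.034%), none of them a member, with 1 control oocyte assumed to vary like the mutants.

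None of the 3 catalytic subunits was called, beside 25.9% of all genes tested. Psmb5, the chymotrypsin-like site, had 10.5, 4.75, 1.23 and 8.52 CPM in wt1, wt3, wt4 and wt5, 0.666 CPM in C3, and 6.03, 1.22, 0.356, 6.24 and 0.997 CPM in D1, D2, D3, D4 and D7. The groups overlapped, and the log2 fold change was -0.71 ± 0.85 (SE; adjusted p = 0.57 in edgeR). Of its windows 57.9% are shared, mostly with the pseudogene Gm3375, so its level is uncertain.

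Psmb6, the caspase-like site, had 56.9, 89.8, 51.5 and 60.1 CPM in wt1, wt3, wt4 and wt5, 108 CPM in C3, and 42.2, 32.3, 58.8, 20.1 and 65.8 CPM in D1, D2, D3, D4 and D7. D3 and D7 lay within the range of the controls and the other mutant oocytes below it. The log2 fold change was -0.74 ± 0.39 (SE; adjusted p = 0.17 in edgeR). With GC and length trends removed it was -1.53 and called.

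Psmb7, the trypsin-like site, had 6.08, 6.47, 0 and 9.42 CPM in wt1, wt3, wt4 and wt5, 0 CPM in C3, and 6.58, 1.22, 2.49, 18.1 and 0.997 CPM in D1, D2, D3, D4 and D7. D4 was the highest, and both groups held oocytes at or under the floor. Its log2 fold change was 0.51 ± 1.02 (SE; adjusted p = 0.74 in edgeR), and it was -0.055 on library totals and -0.59 without D4. Nek6 lies across it on the opposite strand and shares 28.2% of its windows. The remaining beta subunits, Psmb1, Psmb3 and Psmb4, ranged over 1.11 to 74.6 CPM with log2 fold changes from -0.27 for Psmb4 to 0.57 for Psmb3, and none was called.

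Tissue-specific subunits of the core other than Psmb11 had at most 3 counts over all oocytes. Psmb8 and Psmb9, catalytic subunits of the immunoproteasome, had no count in any oocyte, and Psmb10, the other catalytic subunit of that form, had 3 counts, all in wt5. Psma8, the alpha subunit of the testis form, had 2 counts in wt3 and 1 in D2. Over the 10 oocytes together 3 counts are 0.106 CPM, and levels under this were not detectable at this depth. Psmb11, the catalytic subunit of the thymus form, had 0, 0, 1 and 3 counts in wt1, wt3, wt4 and wt5, 8 counts in C3, and 4, 5, 2, 23 and 5 counts in D1, D2, D3, D4 and D7. It passed 3 counts in C3 and in 4 of 5 mutant oocytes and in no wt/wt oocyte, and its highest level was 3.50 CPM in D4. It was the 1 gene of the class that was tested, with a log2 fold change of 1.59 ± 0.92 (SE; adjusted p = 0.21 in edgeR).

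**Figure D2:**
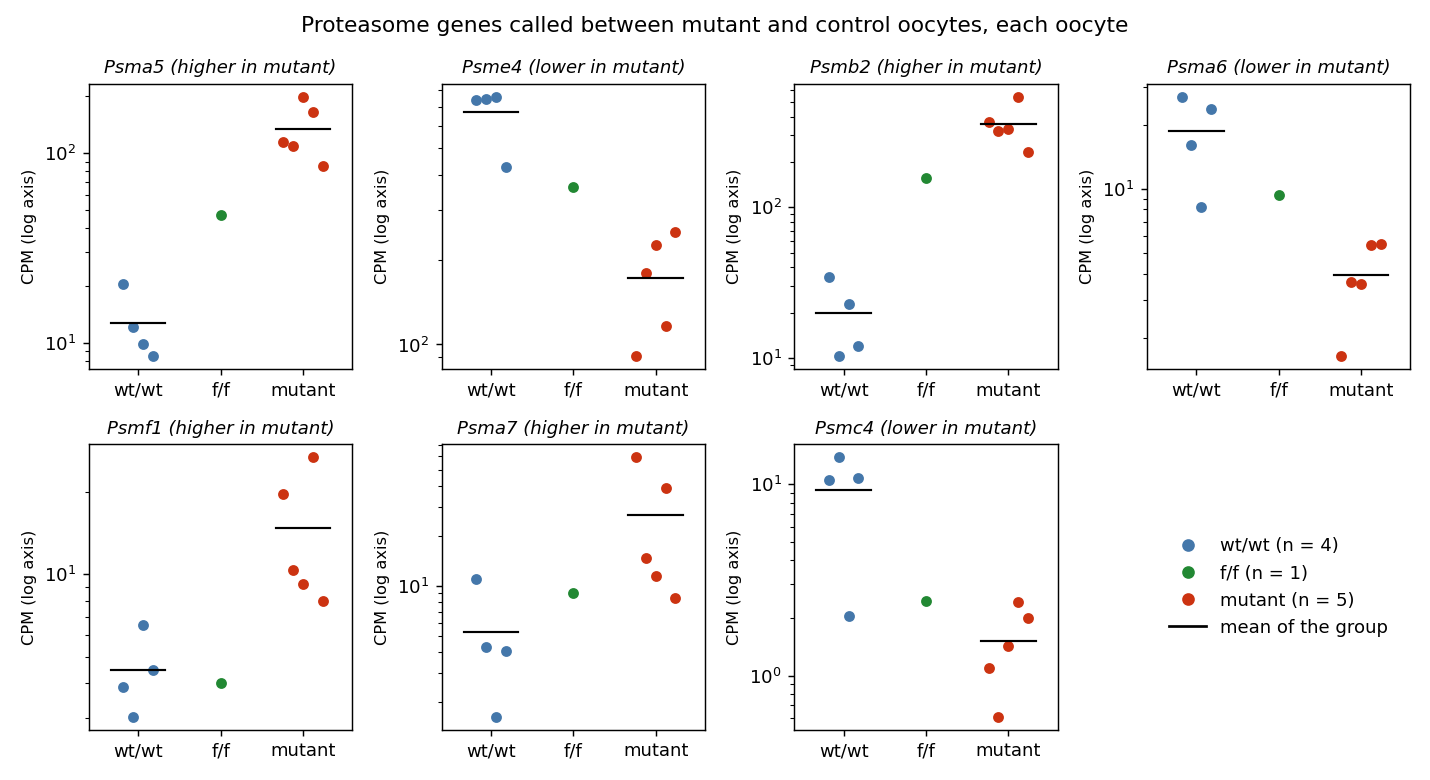
CPM on a log axis in each wt/wt, f/f and mutant oocyte (x axis) for the 7 called members, with lines at the means of the wt/wt and mutant groups. In Psma5, Psmb2 and Psme4 the f/f oocyte lies between the other groups.

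Of the 6 ATPases of the 19S base 1 was called, beside 25.9% of all genes tested. Psmc4 (chromosome 7, 28041707 to 28050101, minus strand) had 10.5, 13.8, 2.05 and 10.8 CPM in wt1, wt3, wt4 and wt5, 2.44 CPM in C3, and 1.10, 0.609, 1.42, 2.43 and 1.99 CPM in D1, D2, D3, D4 and D7. The oocytes wt1, wt3 and wt5 were high, and wt4 lay within the range of the mutants. This gave a log2 fold change of -2.28 ± 0.70 (SE; adjusted p = 0.0254 in edgeR). The call was lost without wt1, wt3, D1 or D2, at -2.16, -2.02, -2.21 and -2.13. Against C3 alone the log2 fold change was -0.60. The other 5 ATPases ranged over 0 to 121 CPM with log2 fold changes from -0.998 for Psmc1 to 0.71 for Psmc6, and none was called.

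None of the 3 other subunits of the base was called, beside 25.9% of all genes tested. Psmd2, a scaffold of the base, had 38.1, 27.2, 32.7 and 38.6 CPM in wt1, wt3, wt4 and wt5, 63.9 CPM in C3, and 66.9, 53.6, 51.6, 66.0 and 63.8 CPM in D1, D2, D3, D4 and D7. The wt/wt oocytes were below all others, and C3 lay within the mutants. On the log2 scale the fold change was 0.59 ± 0.34 (SE; adjusted p = 0.21 in edgeR). Of its windows 27.1% are shared, mostly with Gm5422.

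Psmd1, the other scaffold, was chosen after its values were seen. It had 24.3, 22.4, 27.8 and 28.7 CPM in wt1, wt3, wt4 and wt5, 133 CPM in C3, and 46.1, 46.9, 96.1, 75.9 and 108 CPM in D1, D2, D3, D4 and D7. C3 was the highest of all oocytes, and the wt/wt oocytes were the lowest. Of its windows 8.71% are shared with Gm21972, which lies over 5515 bases of Psmd1 on the same strand, so its level is uncertain. The log2 fold change was 0.65 ± 0.50 (SE; adjusted p = 0.36 in edgeR). Against wt/wt oocytes alone it was called, at 1.52 ± 0.37 (SE; adjusted p = 0.00606 in edgeR, with adjusted p from 0.00606 to 0.55 over all alternatives). Psmd4, a ubiquitin receptor, ranged over 19.6 to 58.1 CPM with a log2 fold change of 0.43.

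In the lid 0 of the 7 genes tested were called in edgeR, beside 25.9% of all genes tested. An unadjusted p under 0.05 was found for 1, beside 39.4% of all genes. In DESeq2 1 was called, beside 30.5%. This gene was Psmd11, with 38.1, 35.8, 21.3 and 33.2 CPM in wt1, wt3, wt4 and wt5, 119 CPM in C3, and 61.4, 144, 143, 143 and 76.3 CPM in D1, D2, D3, D4 and D7. The wt/wt oocytes were below all others, and C3 lay within the mutants. Of its windows 19.25% are shared, mostly with A730017L22Rik, so its level is uncertain. Its log2 fold change was 1.19 ± 0.46 (SE; adjusted p = 0.0657 in edgeR). Against wt/wt oocytes alone it was called, at 1.83 ± 0.39 (SE; adjusted p = 0.00264 in edgeR, with adjusted p from 0.00264 to 0.98 over all alternatives), and it was called in 4 of 19 alternatives in all. The 6 others tested ranged over 0 to 113 CPM with log2 fold changes from -0.74 for Psmd14, the deubiquitinating enzyme, to 0.86 for Psmd8. Psmd13, not tested, had 3, 5 and 1 counts in wt1, wt4 and wt5 and none in the other oocytes.

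Of the 3 chaperones that assemble the base 0 were called in edgeR, beside 25.9% of all genes tested. An unadjusted p under 0.05 was found for 2, beside 39.4% of all genes. In DESeq2 2, Psmd5 and Psmd10, were called higher, beside 30.5% of all genes called in either direction. Psmd5 had 76.3, 40.1, 47.0 and 41.7 CPM in wt1, wt3, wt4 and wt5, 24.0 CPM in C3, and 56.5, 54.2, 154, 209 and 59.3 CPM in D1, D2, D3, D4 and D7. D3 and D4 were high, and the other mutants were between the lowest and highest wt/wt oocyte. This gave a log2 fold change of 1.23 ± 0.46 (SE; adjusted p = 0.0562 in edgeR). It was called without wt1, at 1.48, without D2, at 1.38, and without D7, at 1.38, and in 7 of 19 alternatives in all. It was not called on library totals, at 0.74, or without D3 or D4, at 1.05 and 0.83. The log2 fold changes of Psmd9 and Psmd10, given after their values were seen, were -0.39 and 2.01. Psmd10 was called without wt5, at 2.76, and with unsummed libraries, at 2.30. It had 23.9 CPM in D4 and 3.99 to 6.09 CPM in the other mutant oocytes. Control oocytes had 0.222 to 5.83 CPM, so the groups overlapped.

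Of the 4 chaperones that assemble the core 0 were called in edgeR, beside 25.9% of all genes, and 0 in DESeq2, beside 30.5%. None had an unadjusted p under 0.05, beside 39.4% of all genes. Psmg4 had 1, 1, 3 and 1 counts in wt1, wt3, wt4 and wt5, 6 counts in C3, and 3, 6, 2, 40 and 3 counts in D1, D2, D3, D4 and D7. In level D4 was the highest with 6.08 CPM, followed by D2 with 3.66 CPM, and without D4 the gene had too few counts to be tested. On the log2 scale the fold change was 1.70 ± 0.82 (SE; adjusted p = 0.13 in edgeR). Psmg1, chosen after its values were seen, had 8.84, 9.06, 6.54 and 4.49 CPM in wt1, wt3, wt4 and wt5, 42.0 CPM in C3, and 30.2, 25.6, 18.5, 13.4 and 18.5 CPM in D1, D2, D3, D4 and D7. C3 was the highest of all oocytes, and the wt/wt oocytes were the lowest. The log2 fold change was 0.55 ± 0.57 (SE; adjusted p = 0.50 in edgeR), and with GC and length trends removed -0.19. Against wt/wt oocytes alone it was called, at 1.58 ± 0.47 (SE; adjusted p = 0.0177 in edgeR, with adjusted p from 0.0177 to 0.84 over all alternatives). Psmg2 and Psmg3 ranged over 0 to 6.63 CPM with log2 fold changes of 0.090 and -0.22.

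Of the 3 tested regulators that bind the core, 1 was called higher, beside 14.7% of all genes tested, and 1 lower, beside 11.2%. Psme4 (chromosome 11, 30771726 to 30880361, plus strand) encodes PA200, a nuclear activator known for its part in the degradation of histones. It had 741, 744, 761 and 429 CPM in wt1, wt3, wt4 and wt5, 364 CPM in C3, and 91.0, 179, 225, 117 and 252 CPM in D1, D2, D3, D4 and D7. The mutant oocytes were all below the controls, and C3 was the lowest control. Its log2 fold change was -1.82 ± 0.38 (SE; adjusted p = 0.00359 in edgeR).

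Psme3 (chromosome 11, 101316213 to 101323537, plus strand) encodes another nuclear activator, PA28 gamma, and was chosen after its values were seen. It had 275, 394, 532 and 316 CPM in wt1, wt3, wt4 and wt5, 477 CPM in C3, and 1253, 1057, 583, 591 and 503 CPM in D1, D2, D3, D4 and D7. D1 and D2 were high, and D7 lay below wt4. This gave a log2 fold change of 1.00 ± 0.36 (SE; adjusted p = 0.0495 in edgeR), just under the fold threshold. Against wt/wt oocytes alone it was called, at 1.12 ± 0.37 (SE; adjusted p = 0.0299 in edgeR, with adjusted p from 0.0205 to 0.57 over all alternatives). It was also called without D3, D4 or D7, at 1.15, 1.10 and 1.19, and in 8 of 19 alternatives in all. It was not called on library totals, at 0.54, or without D1 or D2, at 0.81 and 0.91. Psme1 and Psme2, subunits of the interferon-inducible activator, had too few counts to be tested.

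Psmf1 (chromosome 2, 151715812 to 151744186, minus strand) encodes PI31, which binds the core and inhibits it in vitro. It had 3.87, 3.02, 6.54 and 4.49 CPM in wt1, wt3, wt4 and wt5, 4.00 CPM in C3, and 19.7, 10.4, 9.26, 26.8 and 7.98 CPM in D1, D2, D3, D4 and D7. All mutant oocytes were above all control oocytes, and C3 lay within the wt/wt oocytes. On the log2 scale the fold change was 1.76 ± 0.51 (SE; adjusted p = 0.0198 in edgeR). The call was lost on library totals, at 1.33, without D1, at 1.63, and without D4, at 1.43. Of the genes given no role, Psmc3ip ranged over 2.85 to 6.88 CPM with a log2 fold change of -0.45. Psme2b, of whose windows 69.7% are shared, mostly with Psme2, had too few counts to be tested.

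The choice of control oocytes bore on the number of calls. Against wt/wt oocytes alone 8 members were called higher, beside 18.8% of 9166 genes tested, and 3 lower, beside 12.7%. The 4 added were Psmd1, Psmd11, Psme3 and Psmg1. Of the 42 members tested, C3 lay within the mutant range only in 12, within the wt/wt range only in 10, within both in 4, between the ranges in 3 and outside both in 13. The shares of all genes tested were 24.4%, 22.0%, 26.2%, 6.11% and 21.4%.

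The oocytes also differed within a group. D4, the mutant oocyte with the highest total count, was the highest mutant in 22 of the 42 members, which is 52.4%, beside 30.7% of all genes tested. The median SD of log2 CPM over the members was 0.47 among wt/wt and 0.70 among mutant oocytes, beside 0.62 and 0.72 over all genes tested.

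Levels were also summed over each particle. The core genes summed to 1388 ± 348 CPM (SD, n = 5) in control and 2352 ± 368 CPM (SD, n = 5) in mutant oocytes, and each mutant oocyte was above each control oocyte. Without Psma2 the sums were 350.0 ± 86.3 CPM (SD, n = 5) and 797 ± 224 CPM (SD, n = 5). Of the difference between these, which is 447 CPM, Psma5 and Psmb2 made up 425 CPM. The 11 other core genes, summed after these values were seen, had 283 ± 41.4 CPM (SD, n = 5) in control and 305 ± 94.1 CPM (SD, n = 5) in mutant oocytes, and the groups overlapped. The 19S genes summed to 334 ± 83.4 CPM (SD, n = 5) in control and 518 ± 65.9 CPM (SD, n = 5) in mutant oocytes, and C3 with 478 CPM was above D7 with 440.3 CPM. As a share of the total count, the core without Psma2 took 0.0312% to 0.0501% in control and 0.0512% to 0.108% in mutant oocytes. Each mutant oocyte was thus above each control oocyte under both scalings, but as a share wt1 at 0.0501% and D2 at 0.0512% were close. No counting interval was computed for either share, so the order of wt1 and D2 on this scale is uncertain. The whole core took 0.0949% to 0.251% and 0.149% to 0.238%, and the 19S genes 0.0311% to 0.0430% and 0.0407% to 0.0589%, so on this scale the groups overlapped in both. All members together had 2504 to 3051 CPM in control and 3367 to 4529 CPM in mutant oocytes, without overlap. As a share of the total count they took 0.333% to 0.408% in wt/wt oocytes, 0.192% in C3 (95% Wilson interval 0.189% to 0.195%) and 0.306% to 0.386% in mutant oocytes, so there wt/wt and mutant oocytes overlapped.

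**Figure D3:**
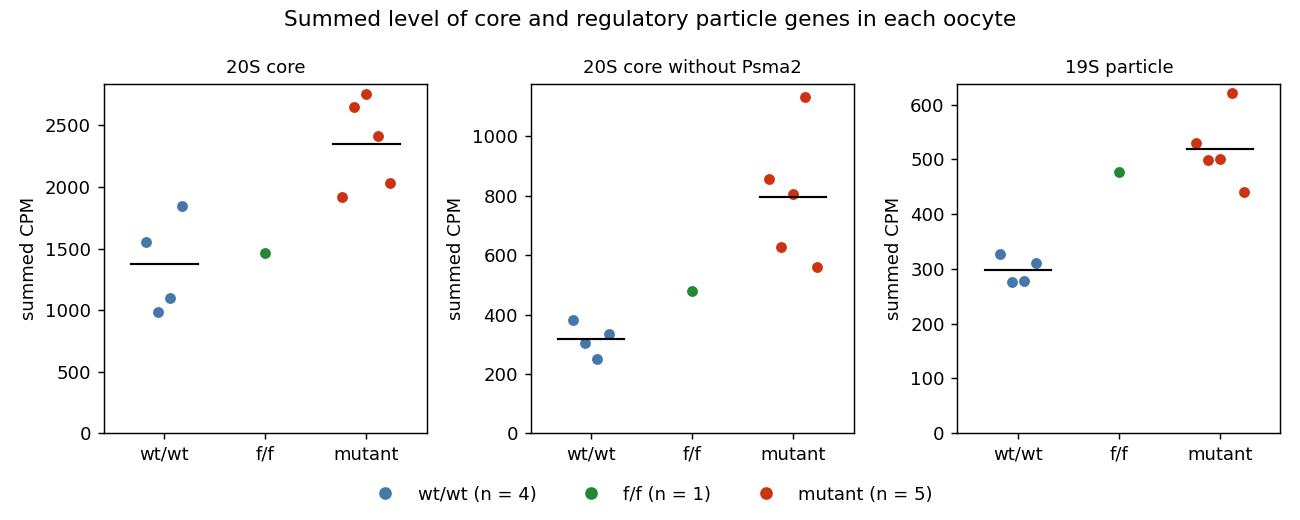
Summed CPM (y axis) of the core genes, of the core genes without Psma2 and of the 19S genes in each oocyte, by genotype (x axis), with lines at the group means. The f/f oocyte is above the wt/wt oocytes for the 19S genes and for the core without Psma2. In summed CPM mutant and control oocytes overlap for the 19S genes only, and as a share of the total count they overlap for the whole core too.

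Levels of different genes were compared per kb of transcript in wt/wt oocytes. Psma2 was the highest, at 362 ± 126 CPM per kb (SD, n = 4). It was followed by Psme3 at 142 ± 42.4, Psme4 at 103 ± 24.7, Psma1 at 100.3 ± 13.0 and Psmb6 at 80.9 ± 21.5 CPM per kb. The lowest oocyte for Psma2 was above the highest for Psme3, while the ranges of Psme3, Psme4, Psma1 and Psmb6 each overlapped with the next. Psmb3 came next at 28.9 ± 7.91 CPM per kb, below the lowest oocyte for Psmb6. Of the windows of Psmb3 56.5% are shared, mostly with pseudogenes, so its level and this gap are uncertain. The mean was under 10 CPM per kb in 31 members and under 1 in 9. With length counted as at most 3 kb, the level of Psme4, whose transcript has 6491 bases, was 223 CPM per kb and above that of Psme3.

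Genes that act with the proteasome were counted from lists. Of 9 partners outside the Psm names, 2 were called higher, beside 14.7% of all genes tested, and 2 lower, beside 11.2%. Shfm1, a small lid subunit, had 15.5, 33.2, 29.0 and 49.4 CPM in wt1, wt3, wt4 and wt5, 27.1 CPM in C3, and 159.6, 222, 144, 279.6 and 170.0 CPM in D1, D2, D3, D4 and D7. Each mutant oocyte was above each control oocyte, and the log2 fold change was 2.66 ± 0.38 (SE; adjusted p = 0.000501 in edgeR). Usp14, a deubiquitinating enzyme of the particle, had a log2 fold change of 2.18 ± 0.40 (SE; adjusted p = 0.00158 in edgeR). That of Ube3c, a ubiquitin ligase of the particle, was -1.66 ± 0.38 (SE; adjusted p = 0.00574 in edgeR). That of Txnl1, a thioredoxin-like protein of the particle, was -1.65 ± 0.45 (SE; adjusted p = 0.0139 in edgeR). In Txnl1 the wt/wt oocytes had 62.4 to 119 CPM, while C3 with 24.0 CPM lay within the mutant oocytes, which had 15.8 to 43.7 CPM. In Usp14 C3 lay between the wt/wt and mutant oocytes, and in Ube3c it was the highest of all oocytes.

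Ubqln2, a shuttle receptor that delivers substrates to the proteasome, was called lower, with a log2 fold change of -1.39 ± 0.38 (SE; adjusted p = 0.0147 in edgeR). C3 was the highest of all oocytes, and D4 and D7 were above wt5. Of 6 tested regulators of proteasome gene transcription 0 were called in edgeR, beside 25.9% of all genes tested, 2 had an unadjusted p under 0.05, beside 39.4%, and 1, Ngly1, which removes sugar chains from Nfe2l1, was called higher in DESeq2, which called 30.5% of all genes. Ngly1 was also called higher without C3, at 1.40, and with filterByExpr, at 1.16. Nfe2l2 was called lower without C3, at -1.45, and on library totals, at -1.85. Nfe2l1, an activator of proteasome genes, had a log2 fold change of 0.67 ± 0.39 (SE; adjusted p = 0.22 in edgeR).

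The promoters of the members were searched for motifs, including those of genes that moved in opposite directions. RefSeq promoters (GRCm38.p6), 300 bases around the first listed start of each gene, were found for 42 of the 50 members and for 27025 symbols in all. Motifs were searched on both strands. The ETS core CCGGAAG was in 33.3% of the members' promoters and 9.12% of all promoters. The GC box GGGCGG was in 54.8% and 35.9%, CCAAT in 35.7% and 37.9%, the antioxidant response element TGACNNNGC in 14.3% and 12.5%, and TATAAA in 9.52% and 14.2%. Of the members called higher, 3 had a promoter and 0 of these held CCGGAAG. Of those called lower, 3 had a promoter and 1, Psme4, held it. A match describes letters only.

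Shown are the promoters of the called members with the smallest p in each direction that have one, Psma5 (chr3:108256676-108256975, plus strand) and Psme4 (chr11:30771525-30771824, plus strand). Beside them stand 2 members that both hold GGGCGG and moved apart, Psma7 (chr2:180042415-180042714, minus strand) and Psmc4 (chr7:28050043-28050342, minus strand). Capitals mark the motifs searched, and in Psme4 GGGCGG, on the opposite strand, and CCGGAAG share 1 base.
Psma5: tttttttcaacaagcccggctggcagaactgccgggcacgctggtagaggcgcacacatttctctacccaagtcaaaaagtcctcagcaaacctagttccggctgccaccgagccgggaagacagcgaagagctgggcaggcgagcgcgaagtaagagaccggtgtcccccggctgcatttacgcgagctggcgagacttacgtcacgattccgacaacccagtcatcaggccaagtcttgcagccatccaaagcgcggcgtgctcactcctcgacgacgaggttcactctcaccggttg
Psme4: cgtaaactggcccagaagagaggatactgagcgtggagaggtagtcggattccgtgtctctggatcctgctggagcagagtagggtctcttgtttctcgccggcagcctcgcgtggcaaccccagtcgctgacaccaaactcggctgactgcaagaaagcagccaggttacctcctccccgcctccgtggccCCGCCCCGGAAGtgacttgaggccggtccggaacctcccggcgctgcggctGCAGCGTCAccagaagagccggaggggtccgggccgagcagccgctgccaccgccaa
Psma7: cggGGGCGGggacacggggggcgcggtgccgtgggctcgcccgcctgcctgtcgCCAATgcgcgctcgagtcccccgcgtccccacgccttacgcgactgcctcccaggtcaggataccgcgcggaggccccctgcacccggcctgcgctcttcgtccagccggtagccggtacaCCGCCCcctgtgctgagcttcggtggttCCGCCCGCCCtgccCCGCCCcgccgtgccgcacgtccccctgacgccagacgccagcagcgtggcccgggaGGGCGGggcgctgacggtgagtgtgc
Psmc4: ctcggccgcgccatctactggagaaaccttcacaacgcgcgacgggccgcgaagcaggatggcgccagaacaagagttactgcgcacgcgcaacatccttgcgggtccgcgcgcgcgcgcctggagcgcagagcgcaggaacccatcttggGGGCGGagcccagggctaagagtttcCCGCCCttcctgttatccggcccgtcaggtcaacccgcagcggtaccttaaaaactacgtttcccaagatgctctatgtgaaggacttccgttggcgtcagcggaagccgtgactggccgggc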

How the data were processed

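The deposited values are whole-number counts per RefSeq gene in 14 libraries. The authors filtered the reads, aligned them to mm10 with TopHat (2.0.6), kept unique best alignments and counted them with HTSeq, whose version differs between the methods and the labels. Use of the strand is not stated, so reads of genes that overlap on opposite strands cannot be told apart.

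Libraries that share an oocyte name were summed to 10 oocytes. The test was edgeR's quasi-likelihood test (edgeR 4.0.16 under R 4.3.3) of mutant against control oocytes, after TMM normalization and without further terms. Of 15432 genes with a count, 9198 were kept, and p-values were adjusted over these by the Benjamini-Hochberg method. The fit was tested on simulated data. Standard errors are the log2 fold change over the root of F, and log2 CPM used a prior count of 2. Positions, lengths and shared windows came from GENCODE M21 transcripts (GRCm38), matched for 50 of 50 members. Summaries used Python 3.11.15 and pandas 2.3.3.

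The members and lists were chosen with earlier results of these data known. Values in every oocyte were given for the catalytic and tissue-specific core subunits and, in each class, for up to 2 called members with the smallest p or, where none was called, the member with the smallest p. The alternatives were DESeq2 1.42.0, upper-quartile scaling, library totals, no filter, filterByExpr, an adjusted p alone, unsummed libraries, 1 library per oocyte, only wt/wt or only f/f oocytes as control, removal of GC and length trends (loess, span 0.5), length of at most 3 kb, and leaving out each oocyte in turn.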

Additional observations from a re-analysis of the deposited data

Results flagged for a closer look

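In 9 of 64 sets of 5 oocytes, 1 oocyte stood apart by a gap of over 0.71 of the range of the set, the critical value of Dixon's test. The sets are the total counts, summed levels and gene levels of a group, which share oocytes. They do not cover every gene given here. Kdm1a, with 148.5 CPM in C3 beside 38.7 CPM in wt1, and Psmb10, detected in wt5 alone, are not among the 9. Some genes, among them Psmd1 and Psmg1, were chosen after their values were seen, and the sums hold genes that also form their own sets. For this reason no chance rate was set against the count. In 8 of the 9 the oocyte was C3, the single f/f oocyte among the controls, and in 1 it was D4.

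The total count of C3 was 6928548 beside 1892015 in the next control oocyte (gap 0.907). That of D4 was 6926076 beside 3245395 in the next mutant oocyte (gap 0.750). Both totals are sums of 2 libraries, of 3410258 and 3518290 counts for C3 and of 3741331 and 3184745 counts for D4, while each wt/wt oocyte, D1 and D2 had 1 library. C3 was the highest control oocyte for the summed CPM of the 19S particle (gap 0.745), of the beta ring (gap 0.754) and of the non-ATPase subunits of the base (gap 0.845). It had 157 CPM beside 34.8 CPM in the next control oocyte (gap 0.833) for Psmb2 and 133 CPM beside 28.7 CPM in the next control oocyte (gap 0.943) for Psmd1. For Psmd11 it had 119 CPM beside 38.1 CPM in the next control oocyte (gap 0.828), and for Psmg1 42.0 CPM beside 9.06 CPM in the next control oocyte (gap 0.878). C3 differs from the other controls in strain, alleles, library naming and depth, which cannot be told apart.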

How the results depend on the processing

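No paired analysis was possible because the oocyte numbers only name oocytes, and after libraries were summed by name some oocytes carry 2 numbers. The 7 called members kept their direction in each alternative in which they were tested. Psma5, Psma6, Psmb2 and Psme4 kept their call in 18 of 19 alternative fits, all but the f/f oocyte alone as control, with wt/wt alone and leaving out C3 counted as 1 fit. Psma7 and Psmf1 kept it in 15 of 19 and Psmc4 in 13 of the 18 in which it was tested. Against the f/f oocyte alone the log2 fold changes were 1.54 for Psma5, -1.19 for Psma6, 1.21 for Psmb2 and -1.05 for Psme4. The number of members called was 7 (4 higher and 3 lower). It was 11 (8 higher) with DESeq2 and with wt/wt oocytes alone, and 0 (0 higher and 0 lower) with the f/f oocyte alone. Of all genes tested 30.5%, 31.5% and 0.034% were called in these fits, beside 25.9% with edgeR and all controls. Leaving out 1 oocyte gave 4 to 11 called, 2 to 8 higher and 2 to 4 lower, with 17.6% to 31.5% of all genes called. The members' median log2 fold change of 0.42 was -0.050 on library totals and -0.33 with GC and length trends removed, and ran from 0.02 to 0.52 with 1 oocyte left out. It was 0.81 with the f/f oocyte alone and 0.67 with filterByExpr. The cause was not tested.

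Signs turned among members that were not called. With the f/f oocyte alone as control the log2 fold changes were 2.14 for Psmb5, -0.80 for Psmd1, -0.050 for Psmd11, -0.058 for Psmd2 and -0.96 for Psmg1. With GC and length trends removed they were -0.19 for Psmg1 and -0.077 for Psmb7, which was -0.055 on library totals and ran from -0.59 to 1.02 with 1 oocyte left out. The cause was not tested. The median level per kb over the members in control oocytes, 5.05 CPM, was the same with length of at most 3 kb. This limit raises only the levels of transcripts over 3 kb. Of these Psmd1, Psmd5 and Psme4 lay above the median without it. Psmf1 and Psmb11 stayed below the median with it, at 1.46 and 0.235 CPM per kb. The median therefore could not show an effect of the limit. Between the 2 libraries of 1 name, members with at least 20 counts differed by a median of 0.25 to 0.63 on the log2 scale. The median of 0.63 was that of C3. The largest difference in a pair ran from 1.465, for Psmd12 in D7, to 1.531, for Psmf1 in D3. Depth limits the members with few counts, such as Psmb5, Psmb7, Psmc4 and Psmg4.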
